A study of Homo sapiens with 6 samples.

Results

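The genes described here encode serum response factor (SRF), its cofactors MRTFA and MRTFB, and the proteins that build, bind, cut and pull on actin filaments. The list of 56 symbols was matched to the 37202 genes of the deposited table, and all 56 were found. It was drawn up with the NR3C2-OE against Control comparison of these libraries already known, so the differences below describe the members and are not independent evidence of their direction. The libraries were made from HK2 cells, an immortalized line of human proximal tubule epithelium. There were 3 libraries (NR3C2-OE 1 to 3) from cells transfected, with Lipofectamine 2000, with a plasmid for overexpression of NR3C2, the mineralocorticoid receptor, and 3 libraries of Control cells, whose genotype is given as normal. All cells were grown in DMEM/F12 with fetal bovine serum and antibiotics. The treatment of the Control cells, the time of harvest and any receptor ligand are not stated in the labels. Nor is it stated that the libraries of a group came from separate cultures, so a p-value here measures spread among libraries that may be technical.

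SRF binds a short element, the CArG box, in front of many genes of the cytoskeleton and of early growth responses. Its cofactors of the MRTF family are held in the cytoplasm by unpolymerized actin and move to the nucleus when actin is drawn into filaments, so that the amount of free actin feeds back on the genes that encode actin and its partners. In the tubule epithelium, actin filaments carry the microvilli of the brush border, the belts at cell junctions and the stress fibres of spread cells. Tropomyosins are coiled coils that lie along the filament, and which tropomyosin is present affects how myosin, cofilin and other proteins bind it.

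The promoters of these genes were searched for the CArG box. RefSeq windows from 250 bases before to 50 bases after each annotated start (300 bases, build GRCh38.p14) were found for 52 of the 56 members, 93 windows in all. ACTB, TAGLN, MYL9 and ARPC1B had no window and were not searched. A CArG box, searched on both strands, occurred in 10 of these 93 windows (10.8%) and in 454 of all 35116 windows of the table (1.29%). By gene, it occurred in 8 of the 52 members and in 438 of all 27305 genes (1.6%). The list was composed partly of genes known as SRF targets, so these shares describe how it was composed. The 10 windows belonged to 8 genes, ACTG1, ACTN1, CNN2, FHL2, FLNA, SRF, TGFB1I1 and TPM4. The FHL2 windows at chr2:105438464-105438763 and chr2:105438480-105438779 overlap and hold the same box. The 6-base letters AGAACA, a steroid receptor half-site, were in 12 of the 93 member windows (12.9%) and in 14.8% of all windows, on either strand. The TEAD letters GGAATG were in 16 member windows (17.2%) and in 14% of all. These searches covered the start windows only, and a match is a match of letters.

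Of these windows, 5 are printed 5′ to 3′ with the CArG boxes in capitals. They belong to SRF itself, to the cross-linkers ACTN1 and FLNA, whose levels were lower in every NR3C2-OE library, to the actin gene ACTG1, whose levels overlapped, and to TPM4, whose level was higher in every NR3C2-OE library. The SRF window lies at chr6:43171019-43171318 (plus strand) and holds 2 boxes, the ACTN1 window at chr14:68977517-68977816 (minus strand), the FLNA window at chrX:154374585-154374884 (minus strand), the ACTG1 window at chr17:81512750-81513049 (minus strand), and the TPM4 window at chr19:16067288-16067587 (plus strand).
SRF: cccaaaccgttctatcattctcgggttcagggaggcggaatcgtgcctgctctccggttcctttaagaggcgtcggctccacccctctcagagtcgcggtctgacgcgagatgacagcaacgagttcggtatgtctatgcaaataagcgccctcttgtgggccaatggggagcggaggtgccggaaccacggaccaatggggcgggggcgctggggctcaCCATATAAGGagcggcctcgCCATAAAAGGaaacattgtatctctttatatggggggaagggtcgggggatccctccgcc
ACTN1: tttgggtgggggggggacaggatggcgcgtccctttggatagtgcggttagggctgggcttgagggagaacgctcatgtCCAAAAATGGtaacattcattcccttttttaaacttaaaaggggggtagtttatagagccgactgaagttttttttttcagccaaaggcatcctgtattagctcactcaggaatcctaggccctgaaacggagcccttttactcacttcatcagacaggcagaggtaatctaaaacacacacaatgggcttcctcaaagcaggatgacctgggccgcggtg
FLNA: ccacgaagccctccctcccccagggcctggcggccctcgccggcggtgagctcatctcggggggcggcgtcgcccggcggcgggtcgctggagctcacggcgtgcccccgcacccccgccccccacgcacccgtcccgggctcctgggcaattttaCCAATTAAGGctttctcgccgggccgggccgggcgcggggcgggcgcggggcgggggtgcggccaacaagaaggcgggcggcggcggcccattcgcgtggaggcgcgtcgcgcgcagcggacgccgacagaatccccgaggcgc
ACTG1: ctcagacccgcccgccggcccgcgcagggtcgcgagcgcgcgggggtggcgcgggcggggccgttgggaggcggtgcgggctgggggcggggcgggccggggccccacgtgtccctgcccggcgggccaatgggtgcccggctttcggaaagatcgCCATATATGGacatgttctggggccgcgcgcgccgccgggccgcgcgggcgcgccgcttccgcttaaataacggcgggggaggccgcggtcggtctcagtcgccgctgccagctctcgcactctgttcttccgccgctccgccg
TPM4: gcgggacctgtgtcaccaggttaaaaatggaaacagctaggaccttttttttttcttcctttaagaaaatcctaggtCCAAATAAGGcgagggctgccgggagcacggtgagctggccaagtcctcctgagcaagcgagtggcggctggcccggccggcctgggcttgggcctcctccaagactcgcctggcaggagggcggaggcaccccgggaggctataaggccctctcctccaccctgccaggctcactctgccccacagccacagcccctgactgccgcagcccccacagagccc
Of the 8 genes with a CArG box in a window, 5 (SRF, ACTN1, FLNA, CNN2 and TGFB1I1) were lower in FPKM in every NR3C2-OE library, 1 (TPM4) was higher in every one, and 2 (ACTG1 and FHL2) overlapped. In this way 6.65% of all genes tested were lower and 9.38% higher, and 32.7% and 9.09% of the tested members. The members were chosen with this contrast known, so nothing is read from the count. The TPM4 box is in the first of 3 start windows of that gene. The second window starts 8957 bases downstream of the first, and the deposited values per gene do not say which start was used. ACTN1, FHL2, SRF and TGFB1I1 also have start windows without a CArG box, and the same limit holds for them.

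Estimated counts totalled 77737375 to 90395149 in the NR3C2-OE libraries and 91956680 to 132533971 in the Control libraries. A value of 4 occurred more often in the table (8694 times) than 3 (5772 times) or 5 (5504 times), so 1 count may not stand for 1 independent fragment. NR3C2 had 12.1, 6.95 and 7.41 FPKM in NR3C2-OE libraries 1, 2 and 3, against 5.97, 6.26 and 5.16 FPKM in Control libraries 1, 2 and 3, with a log2 fold change of 0.68 (SE 0.23, edgeR adjusted p = 0.486), so the plasmid gene itself did not pass the test. Of the epithelial markers, 5 of 6 had at least 1 FPKM in every library, with CDH1 below 1 in each. Of 6 proximal tubule markers examined, 2 (PAX8 and GGT1) reached 1 FPKM in every library, while CUBN, SLC34A1 and AQP1 stayed below 1. The summed proximal tubule markers had 196 to 211 FPKM in NR3C2-OE and 155 to 169 FPKM in Control libraries. PAX8 and GGT1 both moved with the groups, PAX8 at 145 to 157 FPKM in NR3C2-OE and 123 to 139 FPKM in Control, and GGT1 at 51.1 to 56.7 FPKM in NR3C2-OE and 16.3 to 45.5 FPKM in Control. All 6 smooth muscle and myofibroblast markers measured (ACTA2, ACTG2, MYH11, DES, LMOD1 and SYNPO2) were below 1 FPKM in every library, and summed to 0.584 to 0.748 FPKM in NR3C2-OE and 0.591 to 0.902 FPKM in Control. Endothelial markers summed to at most 0.088 FPKM in NR3C2-OE and 0.15 FPKM in Control libraries, and fibroblast markers to 14 to 14.9 FPKM and 12.6 to 15.5 FPKM. The striated muscle list summed to 58.1 to 68.5 FPKM in NR3C2-OE and 54.3 to 61.6 FPKM in Control, carried by TNNT1, and the leukocyte list to 24.3 to 31.0 FPKM and 21.1 to 21.5 FPKM, carried by CD68, which was higher in every NR3C2-OE library. The part of these marker differences in the results below was not tested.

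Across the list, most genes had slightly lower values in NR3C2-OE, and TPM4 stood apart with a mean FPKM 2.13 times that of Control. Of the 55 members with enough counts to be tested, 42 had a negative log2 fold change (NR3C2-OE over Control, from estimated counts) and 13 a positive one. The median was -0.07, against 0.0007 over all 21509 genes tested. No member passed edgeR's test (adjusted p below 0.05), which called 6 genes, 0.0279% of those tested, and the lowest adjusted p of a member was 0.177, for SRF. Without adjustment, 19 of the 55 members had an edgeR p below 0.05, 17 of them lower and 2 higher, against 9.19% of all genes. DESeq2 called 7 members (SRF, ACTB, NEXN, ACTN1 and FLNC lower, TPM4 and VASP higher), and 1.52% of all genes (0.828% lower and 0.697% higher). In FPKM, all 3 NR3C2-OE libraries lay below all 3 Control libraries for 18 members, where this held for 6.65% of all genes, and above them for 5 members, where it held for 9.38%. In FPKM and in scaled counts together, the groups were apart for 18 lower members (5.5% of all genes) and 2 higher ones, TPM4 and PFN1 (6.19% of all genes). Because this contrast was in view when the list was made, nothing is read from these shares. The 55 tested members are those that passed a filter on low counts, and TPM2, the remaining one, did not.

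**Figure D1:**
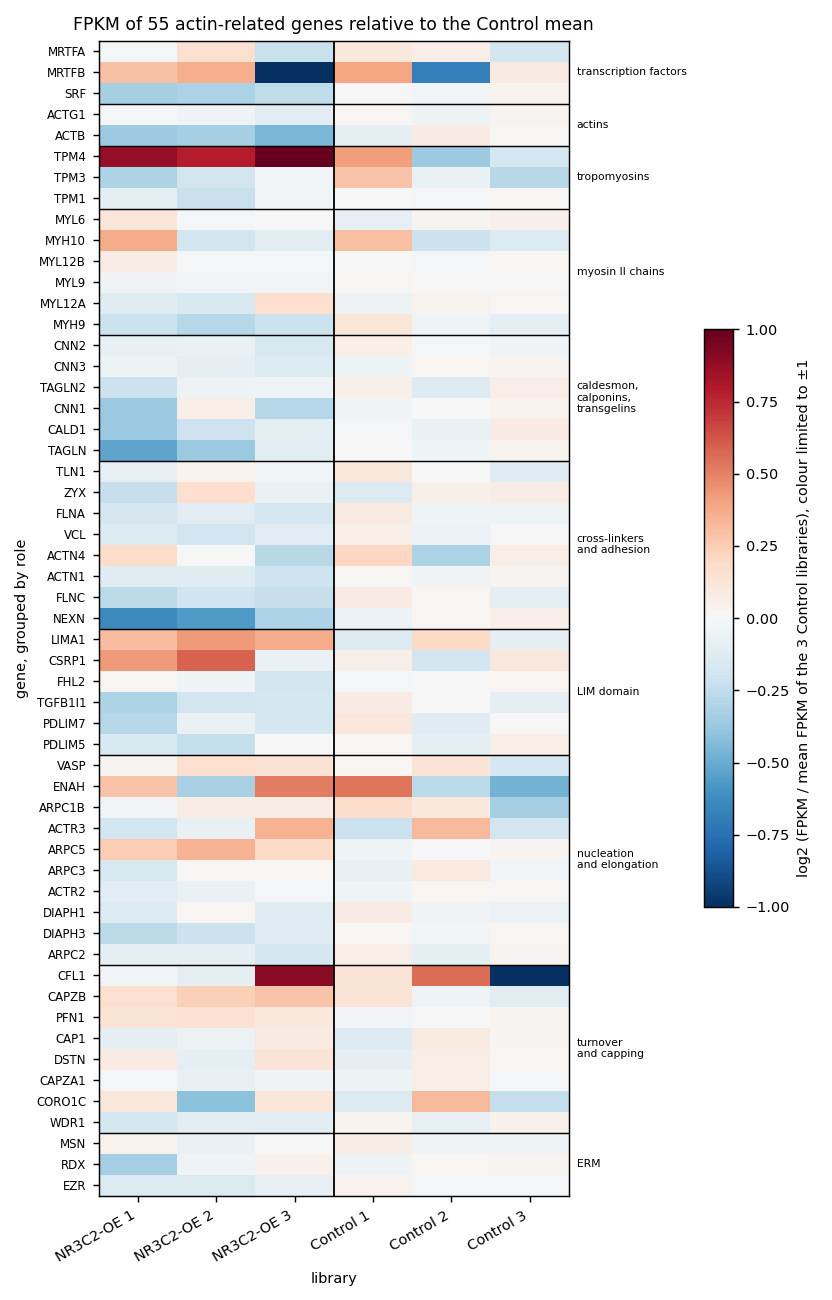
FPKM of the 55 tested genes (rows, grouped by role) in the 3 NR3C2-OE libraries (left) and the 3 Control libraries (right), as log2 of the ratio to the mean of the Control libraries; red is higher and blue is lower, with colours limited to 1 on the log2 scale. SRF, ACTB, NEXN and MYH9 are blue in all 3 NR3C2-OE libraries and TPM4 is red in all 3, while MRTFB, CFL1, ENAH, ACTR3 and CORO1C vary as much within a group as between groups.

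TPM4 had a higher level in every NR3C2-OE library, and of the other tropomyosins none was higher. TPM4 (ENSG00000167460) encodes non-muscle tropomyosin found in stress fibres of many cell types. It had 398, 373 and 611 FPKM in NR3C2-OE libraries 1, 2 and 3, against 289, 168 and 191 FPKM in Control libraries 1, 2 and 3. The lowest NR3C2-OE library was above the highest Control library. The means were 461 ± 131 FPKM in NR3C2-OE and 216 ± 64.2 FPKM in Control (SD, n = 3 each), a ratio of 2.13. In CPM, which are counts scaled to library size with edgeR's TMM factors, TPM4 had 1698, 1615 and 1719 in NR3C2-OE against 909, 546 and 1016 in Control. Here the NR3C2-OE libraries were close together and the Control libraries were spread, Control 2 being the lowest. The log2 fold change of the counts was 1.03 (SE 0.22, 95% interval 0.42 to 1.63), the highest among the members, where the next highest was 0.40, for CFL1. Its edgeR adjusted p was 0.304. Without Control 2 the log2 fold change was 0.80 with a smaller error (SE 0.067, adjusted p = 0.0619).

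TPM1, which encodes tropomyosins of muscle and of stress fibres, had 443, 404 and 465 FPKM in NR3C2-OE and 474, 467 and 477 FPKM in Control libraries. The groups did not overlap, but the highest NR3C2-OE library lay just under the lowest Control library. Its log2 fold change was -0.19 (SE 0.062). TPM3, the gene of a further set of non-muscle tropomyosins, had 73.5, 80.4 and 89.4 FPKM in NR3C2-OE and 111, 87.2 and 75.1 FPKM in Control libraries, which overlapped (log2 fold change -0.18, 95% interval -0.51 to 0.16). TPM2, the beta tropomyosin gene, was close to absent, with estimated counts of 0, 0 and 5 in NR3C2-OE and 21, 0 and 8 in Control libraries. It was not tested, and no fold is given because most of its values are at or near 0.

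Set against each other inside each library, the tropomyosins showed the same difference free of library scaling. TPM4 made up 43.5%, 43.5% and 52.4% of the summed TPM1 to TPM4 FPKM in NR3C2-OE libraries 1, 2 and 3, against 33.1%, 23.3% and 25.7% in Control libraries 1, 2 and 3 (46.5% ± 5.1 and 27.4% ± 5.1, SD, n = 3 each). TPM1 made up 45.2% ± 4.6 in NR3C2-OE and 61.0% ± 5.9 in Control, and TPM3 8.36% ± 0.90 and 11.6% ± 1.4. The order TPM1, TPM4, TPM3, TPM2 held in all 3 Control libraries and in NR3C2-OE 1 and 2. In NR3C2-OE 3, TPM4 exceeded TPM1 in FPKM, with a ratio of 1.31, where the ratio of TPM4 to TPM1 was 0.897 and 0.922 in NR3C2-OE 1 and 2 and 0.610, 0.361 and 0.401 in the Control libraries. In CPM, NR3C2-OE 3 did not stand apart, with 1719 for TPM4 and 969 for TPM1. NR3C2-OE 1 had 1698 and 918 CPM, and NR3C2-OE 2 had 1615 and 845 CPM. On a log2 scale of FPKM, TPM4 minus the mean of TPM1 and TPM3 was 1.14, 1.05 and 1.58 in NR3C2-OE and 0.34, -0.26 and 0.01 in Control, a mean difference of 1.23. The sum of all tropomyosins was 915, 858 and 1165 FPKM in NR3C2-OE and 874, 722 and 743 FPKM in Control libraries. These ranges overlapped, since NR3C2-OE 2 lay under Control 1. Without TPM4 the sum was 517, 485 and 554 FPKM in NR3C2-OE and 585, 554 and 552 FPKM in Control.

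**Figure D2:**
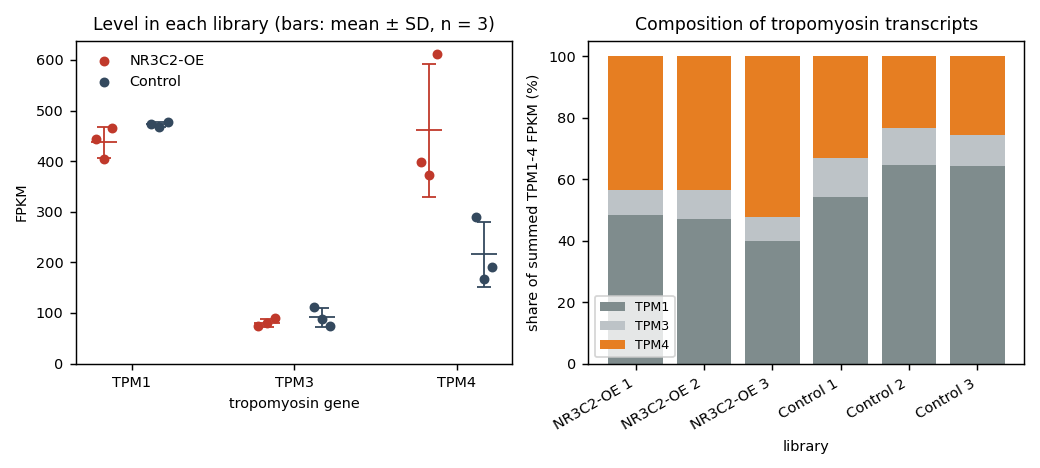
Left, FPKM of TPM1, TPM3 and TPM4 in each library (points), with the mean and SD of 3 libraries (bars), NR3C2-OE to the left of Control. Right, the share of each gene in the summed FPKM of TPM1 to TPM4, by library; TPM2 is too low to be seen. TPM4 is the only one of the 3 plotted genes with higher points in NR3C2-OE, and its share is 43.5% to 52.4% there and 23.3% to 33.1% in Control.

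The estimated counts and the FPKM of TPM4 parted between libraries more than those of most genes. The estimated count, scaled to library size, divided by the FPKM gives an apparent transcript length, whose absolute size depends on the scaling inside the FPKM but which should be equal across libraries for a gene with 1 transcript mix. For TPM4 it was 4247, 4388 and 2838 bases in NR3C2-OE and 3141, 3213 and 5268 bases in Control libraries. The libraries with short and long apparent lengths did not follow the groups. The highest value was 1.86 times the lowest, a wider span than in 97.9% of the 12934 genes with at least 1 FPKM in every library, whose median was 1.09. The median of the members was 1.06. For SRF, NEXN and MYH9 the span was 1.01, 1.02 and 1.01, and for TPM1 and TPM3 it was 1.10 and 1.08. Only CFL1 and ACTN4, both 1.75, came near TPM4. The part of this in the difference of TPM4 was not tested. The groups did not overlap in FPKM or in CPM. An unnamed antisense gene (ENSG00000279198) overlaps TPM4 in the GENCODE 29 annotation and had 3.79 CPM in NR3C2-OE and 3.75 CPM in Control, far below TPM4 itself.

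**Figure D3:**
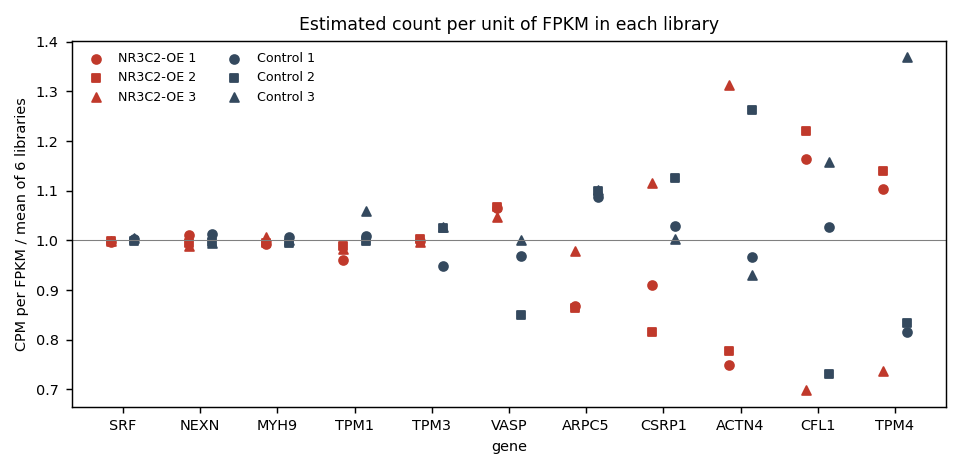
Estimated count, scaled to library size, divided by FPKM, relative to the mean of the 6 libraries, for 11 genes; red marks are NR3C2-OE and dark marks are Control libraries, with a marker shape for each replicate number. SRF, NEXN and MYH9 stay near 1 in every library, while ACTN4, CFL1 and TPM4 span 1.75, 1.75 and 1.86 times. For CFL1 and TPM4, libraries of both groups lie toward either end, while NR3C2-OE 1 and 2 are the lowest for ACTN4.

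SRF transcripts were lower in all NR3C2-OE libraries, and its cofactors differed less than their own spread. SRF (ENSG00000112658) had 14.9, 15.1 and 15.7 FPKM in NR3C2-OE and 18.7, 18.4 and 19.2 FPKM in Control libraries. Both groups were tight, and the gap between them was wider than either. The means were 15.2 ± 0.392 and 18.8 ± 0.412 FPKM (SD, n = 3 each), and the log2 fold change of the counts was -0.32 (SE 0.044, 95% interval -0.45 to -0.20). MRTFA, the cofactor also called MKL1, had 9.81, 11.1 and 8.52 FPKM in NR3C2-OE and 10.7, 10.4 and 8.77 FPKM in Control libraries, which overlapped (log2 fold change -0.04, 95% interval -0.25 to 0.17). MRTFB, its paralog MKL2, had 5.56, 5.82 and 1.80 FPKM in NR3C2-OE and 5.95, 2.82 and 4.84 FPKM in Control. A low library occurred in each group, so the interval was wide, from -1.35 to 1.22 on the log2 scale. In bulk RNA such as this, fewer cells that express a gene and less RNA per cell cannot be told apart.

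The cytoplasmic actins parted. ACTB, the beta actin gene and the most abundant member in the list, had 1197, 1221 and 1121 FPKM in NR3C2-OE and 1443, 1626 and 1548 FPKM in Control libraries (1179.6 ± 52.3 and 1539 ± 91.9 FPKM, SD, n = 3 each). The groups were well apart, with a log2 fold change of -0.36 (SE 0.071, 95% interval -0.56 to -0.16). ACTG1, the gamma actin gene, had 603, 598 and 568 FPKM in NR3C2-OE and 622, 590.3 and 626 FPKM in Control, and the groups overlapped (log2 fold change -0.08, 95% interval -0.22 to 0.06). The FPKM of ACTB was 1.99, 2.04 and 1.97 times that of ACTG1 in NR3C2-OE and 2.32, 2.75 and 2.47 times in Control. The proteins of these genes are nearly alike, and the split of reads between the genes was not checked. Their sum was 1800.5, 1819 and 1689 FPKM in NR3C2-OE and 2065, 2216 and 2174 FPKM in Control libraries, so the groups did not overlap in the sum either. The summed tropomyosins came to 50.8%, 47.2% and 69.0% of this sum in NR3C2-OE and to 42.3%, 32.6% and 34.2% in Control.

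Among the chains of non-muscle myosin II, the motor that tenses actin bundles, the heavy chain MYH9 was lower and the light chains were close to their Control levels. MYH9 had 227, 216 and 227 FPKM in NR3C2-OE and 287, 255 and 248 FPKM in Control libraries, without overlap (log2 fold change -0.26, SE 0.064). MYH10, the second heavy chain gene, had 32.1 ± 7.08 FPKM in NR3C2-OE and 31.1 ± 6.32 FPKM in Control (95% interval of the log2 fold change -0.44 to 0.43). The essential light chain MYL6 and the regulatory light chains MYL12A and MYL12B overlapped between groups, at 635, 305 and 239 FPKM on average in NR3C2-OE and 618, 312 and 236 FPKM in Control. MYL12A and MYL12B encode near-identical proteins, and the split of reads between them was not checked. The regulatory light chain MYL9 had 136, 137 and 137 FPKM in NR3C2-OE and 141, 139 and 139 FPKM in Control, apart but by little (log2 fold change -0.05, 95% interval -0.14 to 0.05).

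All 6 genes for caldesmon, calponins and transgelins, which bind filaments and in muscle temper contraction, had negative log2 fold changes, from -0.38 to -0.09. TAGLN, the smooth muscle marker SM22 and a known SRF target, had 29.8, 33.3 and 39.9 FPKM in NR3C2-OE and 43.1, 41.8 and 44.0 FPKM in Control libraries. NR3C2-OE 3 came close to the Control range, and the log2 fold change was -0.38 (SE 0.11). Caldesmon (CALD1) had 61.2 ± 6.02 FPKM in NR3C2-OE and 71.3 ± 3.95 FPKM in Control (log2 fold change -0.24), and its groups did not overlap. CNN2 and CNN3, the calponins of non-muscle cells, were also lower in every NR3C2-OE library. Their log2 fold changes were small, -0.09 for CNN2 and -0.11 for CNN3, and both 95% intervals included 0. TAGLN2 (513 and 549.6 FPKM on average in NR3C2-OE and Control) overlapped, as did the smooth muscle calponin CNN1, which had only 1.96 ± 0.325 FPKM in NR3C2-OE and 2.23 ± 0.0521 FPKM in Control.

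The log2 fold changes of the 8 cross-linkers and adhesion genes were all below 0, and for 5 of these genes every NR3C2-OE library was under every Control library in FPKM, where 49.8% of all genes had a negative log2 fold change and 6.65% lay apart in this way. NEXN, the actin-binding protein nexilin, had the lowest log2 fold change of the list. Its FPKM were 16.7, 17.6 and 21.0 in NR3C2-OE and 24.9, 26.2 and 26.9 in Control libraries, without overlap (log2 fold change -0.52, SE 0.084, 95% interval -0.75 to -0.28). An antisense gene, NEXN-AS1, overlaps it, with 1.66 CPM in NR3C2-OE and 2.0 CPM in Control, and the sources used here do not say whether strand was used in counting.

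Alpha-actinin 1 (ACTN1), which bundles filaments in stress fibres, had 182, 182 and 172 FPKM in NR3C2-OE and 199.6, 193 and 202 FPKM in Control libraries (log2 fold change -0.23, SE 0.046). Vinculin (VCL), which couples adhesions to actin under tension, had 93.4, 89.5 and 94.7 FPKM in NR3C2-OE and 107, 98.4 and 102 FPKM in Control (-0.18, SE 0.045). Both had groups that did not overlap. The filamins, which cross-link filaments into networks, were lower to differing degrees. FLNC had 18.8, 19.7 and 19.3 FPKM in NR3C2-OE and 23.9, 22.9 and 21.1 FPKM in Control (-0.25, SE 0.052). FLNA, the more abundant filamin, had 454, 474 and 456 FPKM in NR3C2-OE and 543, 496 and 495 FPKM in Control (-0.15, SE 0.040). Alpha-actinin 4 (ACTN4), talin (TLN1) and zyxin (ZYX) overlapped, with log2 fold changes of -0.21, -0.04 and -0.07. ACTN4 was among the genes whose counts and FPKM parted, and its FPKM averaged 96.6 ± 15.2 in NR3C2-OE and 98.0 ± 17.6 in Control.

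The LIM domain genes were divided. TGFB1I1, the adhesion protein Hic-5, had 40.2 ± 2.05 FPKM in NR3C2-OE and 47.0 ± 2.76 FPKM in Control, without overlap (log2 fold change -0.15, SE 0.052). The Z-disc and stress fibre adaptors PDLIM5 (log2 fold change -0.25, 95% interval -0.47 to -0.03) and PDLIM7 (-0.17) overlapped in FPKM, as did FHL2 (-0.10). In CPM, PDLIM5 was lower in every NR3C2-OE library, while PDLIM7 and FHL2 overlapped. LIMA1, the filament bundler EPLIN, was higher in FPKM in every NR3C2-OE library (14.3 ± 0.522 against 11.0 ± 1.45 FPKM), but its counts overlapped (log2 fold change 0.22, 95% interval -0.07 to 0.52). CSRP1 had 43.4 ± 9.62 FPKM in NR3C2-OE and 34.1 ± 3.65 FPKM in Control, with a 95% interval of the log2 fold change of the counts from -0.05 to 0.35.

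**Figure D4:**
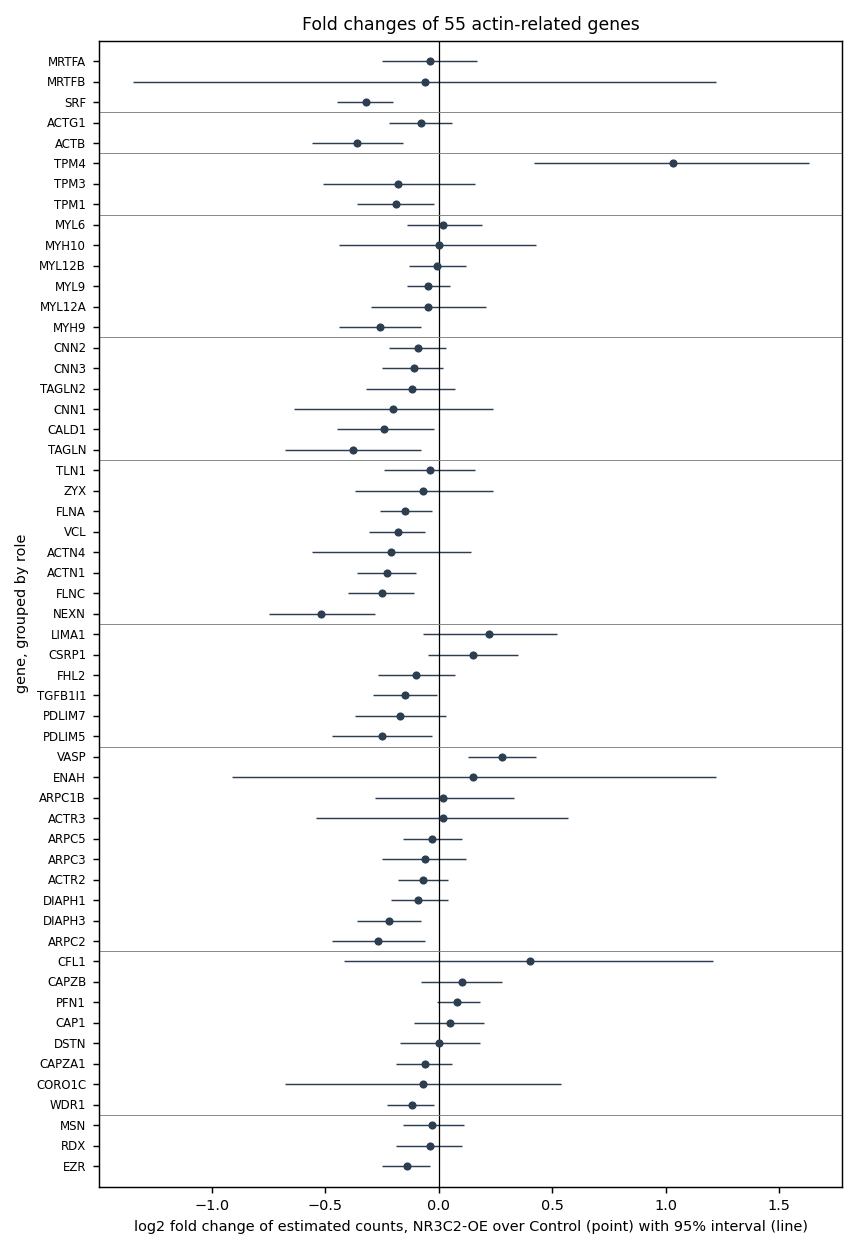
Log2 fold changes of the estimated counts, NR3C2-OE over Control, with 95% intervals, for the 55 tested genes grouped by role. TPM4 lies farthest to the right at 1.03 and NEXN farthest to the left at -0.52, and MRTFB, ENAH and CFL1 have the widest intervals.

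Nucleators and elongators did not move as a block. ARPC2, a core subunit of the Arp2/3 complex that starts branched filaments, had 198, 199 and 189 FPKM in NR3C2-OE and 221, 199 and 216 FPKM in Control libraries, and only its CPM were apart (log2 fold change -0.27, SE 0.074). The subunit ARPC5 went the other way in FPKM, with 82.5 ± 4.55 in NR3C2-OE and 68.6 ± 1.51 in Control, while its counts were nearly equal (log2 fold change -0.03, 95% interval -0.16 to 0.10), and its apparent length was 3102, 3090 and 3503 bases in NR3C2-OE and 3891, 3935 and 3939 bases in Control. ARPC1B, ARPC3, ACTR2 and ACTR3 had log2 fold changes from -0.07 to 0.02, and all of them overlapped. The formin DIAPH3, which elongates straight filaments, had 15.1, 15.7 and 16.7 FPKM in NR3C2-OE and 18.3, 17.9 and 18.4 FPKM in Control, without overlap (-0.22, SE 0.050). The formin DIAPH1 overlapped in FPKM and was lower in CPM in every NR3C2-OE library (-0.09, 95% interval -0.21 to 0.04). VASP, which speeds growth at filament tips, had 43.0, 47.6 and 46.8 FPKM in NR3C2-OE and 42.8, 46.4 and 37.6 FPKM in Control. These overlapped, although its CPM did not and gave a log2 fold change of 0.28 (SE 0.055). Its apparent length also parted by group, at 2541, 2548 and 2500 bases in NR3C2-OE and 2310, 2030 and 2388 bases in Control. Its relative ENAH ranged from 21.9 to 39.2 FPKM in NR3C2-OE and from 19.8 to 39.8 FPKM in Control.

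Genes of filament turnover had a median log2 fold change of 0.03, with wide 95% intervals for CFL1 and for CORO1C (-0.68 to 0.54). Profilin 1 (PFN1), which loads actin monomers for assembly, was the only member besides TPM4 that was higher in every NR3C2-OE library in both FPKM and CPM. It had 1009, 1017 and 988 FPKM in NR3C2-OE and 900.1, 914 and 935 FPKM in Control, with a log2 fold change of 0.08 (95% interval -0.01 to 0.18). WDR1, which assists cofilin in taking filaments apart, had 167, 175 and 175 FPKM in NR3C2-OE and 193, 179 and 195 FPKM in Control, without overlap (-0.12, SE 0.036). The capping protein subunit CAPZB was higher in FPKM in every NR3C2-OE library (130.1 ± 5.09 and 111 ± 10.2 FPKM in NR3C2-OE and Control) but overlapped in CPM. Cofilin (CFL1), which severs filaments, varied most of this group, with 257, 246 and 489 FPKM in NR3C2-OE and 287, 386 and 112 FPKM in Control, and the interval of its log2 fold change ran from -0.42 to 1.21. Its CPM were higher in every NR3C2-OE library, where those in FPKM overlapped. DSTN, CAP1, CAPZA1 and CORO1C overlapped, with log2 fold changes from -0.07 to 0.05.

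Of the ERM genes, whose proteins tie actin to the plasma membrane and its microvilli, ezrin was lower and the others overlapped. Ezrin (EZR), the one typical of epithelial microvilli, had 147, 147 and 153 FPKM in NR3C2-OE and 166, 161 and 159.9 FPKM in Control libraries (log2 fold change -0.14, SE 0.038). Moesin (MSN) had 149 ± 5.16 FPKM in NR3C2-OE and 149 ± 6.65 FPKM in Control, and radixin (RDX) 37.2 ± 4.90 and 39.9 ± 1.27 FPKM, with 95% intervals from -0.16 to 0.11 and from -0.19 to 0.10.

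The spread within groups differed between members. The SD of log2 CPM within groups had a median of 0.084 over the members and 0.10 over genes with at least 1 FPKM in every library. It exceeded 0.2 in 8 members, MRTFB, MYH10, TPM4, CFL1, ACTR3, CORO1C, ENAH and, by little, CNN1. Control 2 and NR3C2-OE 3 shared the low MRTFB values, and in ACTR3 the same libraries were the high ones, at 115 FPKM in NR3C2-OE 3 and 113 FPKM in Control 2, against 77.9 to 85.8 FPKM in the other 4 libraries. In MYH10, library 1 was the high one in both groups, with 40.2 FPKM in NR3C2-OE 1 and 38.3 FPKM in Control 1.

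Related genes outside the list were grouped by function. Of 117 tested genes in 7 such lists, 0 passed edgeR's test and 16 had an edgeR p below 0.05 without adjustment (13 lower and 3 higher, where 4.76% and 4.43% of all genes had such a p). DESeq2 called 4, all lower, and 0.828% of all genes as lower. Of 18 known SRF and MRTF targets, 13 had a negative log2 fold change, as did 49.8% of all genes. The other 5 were positive, up to 0.81 for IER2, and the median was -0.19. An unadjusted edgeR p below 0.05 was found for 6, all lower, and DESeq2 called 3. ACTA2, ACTG2, MYH11 and LMOD1, counted among the 18, were below 1 FPKM in every library. The list was chosen with earlier results known, so nothing is read from these counts. CCN2, a matricellular growth modulator, had 58.4, 61.0 and 67.4 FPKM in NR3C2-OE and 86.1, 84.1 and 93.5 FPKM in Control libraries (log2 fold change -0.52, SE 0.070). THBS1, the matrix protein thrombospondin 1, had 131, 134 and 139 FPKM in NR3C2-OE and 174, 167 and 156 FPKM in Control (-0.33, SE 0.052). Both genes were known to be lower from earlier work on these libraries.

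The other lists had medians between -0.08 and 0.02. Among 19 further cross-linkers and stress fibre genes, 3 lower and 1 higher had an unadjusted p below 0.05 in edgeR. Of all genes tested, 9.19% had such a p (4.76% lower and 4.43% higher), so nothing is read from the counts of these short lists. ANLN, the anillin scaffold of the cytokinetic ring, had 68.4 ± 5.27 FPKM in NR3C2-OE and 84.4 ± 0.84 FPKM in Control (log2 fold change -0.32), and the bundler fascin (FSCN1) 80.0 ± 2.28 and 89.0 ± 4.79 FPKM (-0.17). In the focal adhesion list, 2 of 19 genes had such a p, the scaffolds BCAR1 (-0.26) and PXN (-0.14). Of 18 further turnover genes, 2 did and were higher, the severing protein gelsolin, GSN (22.8 ± 1.51 FPKM in NR3C2-OE and 19.6 ± 0.19 in Control), and TWF2 (28.8 ± 2.52 and 25.3 ± 0.337 FPKM). In the formin list 1 of 13 genes did, FMNL1 (-0.22), ahead of DAAM1 (-0.15), and of 13 other myosins 1 did, MYO5A (-0.19), while MYO15B (-0.96) was below 0.11 FPKM in every library. Of the 18 further Arp2/3 and WAVE genes 0 did, and the smallest p belonged to BRK1 (-0.10) and CYFIP2 (-0.14), although the FPKM of CYFIP2 averaged 5.16 in NR3C2-OE and 4.1 in Control.

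**Figure D5:**
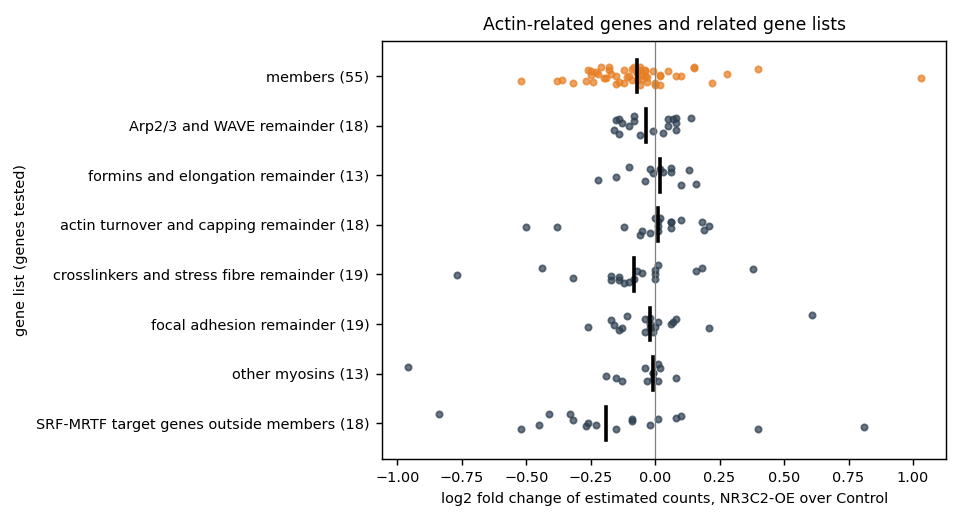
Log2 fold changes of the estimated counts, NR3C2-OE over Control, for the 55 tested members (orange) and for 7 lists of related genes (dark), with the median of each as a black bar and the number of genes tested in parentheses; a gene may be in 2 lists. The medians are -0.07 for the members and -0.19 for SRF and MRTF targets outside them, and those of the other 6 lists lie between -0.08 and 0.02.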

How the data were processed

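The authors deposited 1 table with 2 values per gene and library. FPKM, per the deposited file's name, are fragment numbers scaled for transcript length and library size. The other columns are estimated counts deposited by the authors as whole numbers. Per the submitters' processing notes, cutadapt 1.2.1 was used on the reads, which came from strand-specific, paired-end libraries per the labels' protocols. The aligner was not given in the sources used here, nor were the counting program, its use of strand, the genome build and the annotation. All 36466 Ensembl identifiers matched a symbol, and 736 genes named during assembly, with 2.88% to 2.98% of the counts, stayed in the tests.

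The estimated counts, already whole, were tested across all genes with edgeR 4.0.16 (glmQLFit and glmQLFTest, R 4.3.3) after filterByExpr and TMM scaling, with the group alone in the model, two-sided and with Benjamini-Hochberg adjustment at 0.05. Standard errors came from the F statistics, and 95% intervals use 4 degrees of freedom. CPM were computed from the estimated counts with TMM factors. The apparent length used counts scaled to the plain total. The steps were tested on simulated data. Alternatives were DESeq2 1.42.0, limma 3.58.1, other filters and scalings, and leaving out each library. Values per library are given for SRF, MRTFA, MRTFB, the actins, the tropomyosins and the 12 other members with the smallest p. From each related list, 2 genes were chosen for naming by p, with values per library only for CCN2 and THBS1. PFN1, CFL1, MYL9 and other members were added after their values were seen. Promoters came from RefSeq (GRCh38.p14) and gene overlaps from GENCODE 29. Of the 56 members, 55 passed the filter on low counts. Members and lists were chosen with earlier results of these data known. TPM2 is 0 in 3 libraries, so TPM4 was set against TPM1 and TPM3 rather than against all 3 others, which had been the plan. A list of related genes and a marker gene are not reported here.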

Additional observations from a re-analysis of the deposited data

How the results depend on the processing

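Under the library scalings tried, TPM4 was higher and the members' median lower in NR3C2-OE. When 1 library was left out, the log2 fold change of TPM4 ran from 0.80 to 1.21, and its difference from TPM1 and TPM3 from 1.06 to 1.38. The median of the members ran from -0.095 to -0.084, each time below the -0.071 with all libraries, and moved most without Control 2 (-0.095). The number of members edgeR called stayed at 0. The number of all genes called ran from 5 to 18, against 6 with all libraries. It was 13 without Control 2, and 14, 18 and 16 without NR3C2-OE 1, 2 and 3. The cause of these shifts was not tested. The DESeq2 Wald test called 328 genes and 7 members, TPM4 among them (log2 fold change 1.03, adjusted p = 0.000902). Over all alternatives the adjusted p of TPM4 ran from 0.000902 to 0.688. With limma on log2(FPKM + 1), 0 genes were called. It is not stated whether the replicate numbers pair the libraries. The correlations of same-numbered deviations were 0.0266, 0.0158 and 0.0038, and deviations from means of 3 libraries cannot decide it. With the replicate number as a block, 0 genes and 0 members were called, the log2 fold change of TPM4 was 1.07 (SE 0.18) and the median of the members -0.076. The number of members with a negative log2 fold change was 42 with TMM or DESeq2 size factors and 40 with total-count scaling, added after seeing the data. Of 285 values of 19 other named members under alternatives, 281 moved by less than 1 SD; the exceptions were SRF (-0.29), VASP (0.12), ACTN1 (-0.15) and ARPC2 (-0.12) on log2(FPKM + 1), and signs changed for MRTFA (0.03 without NR3C2-OE 3) and MRTFB (0.14, 0.02 and 0.30 without Control 1, Control 3 and NR3C2-OE 3). Neither depth nor FPKM can show which TPM4 transcripts were present.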
